A study of Homo sapiens with 16 samples.

Results

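The replication-dependent histone genes encode the core histones H2A, H2B, H3 and H4 and the linker histone H1 that package new DNA in S phase. They were taken as all genes whose name starts with HIST and a cluster number followed by a histone class. Of 89 such names, 15 that mark pseudogenes were dropped, as were 23 genes with fewer than 10 counts in each library, 9 of them listed at 0 in all libraries. This left 51 of the 60623 genes in the files, 4 for H1, 12 for H2A, 17 for H2B, 8 for H3 and 10 for H4. Of these, 40 lie on chromosome 6, 10 on chromosome 1 and 1 on chromosome 12. *HIST2H2BC* and *HIST2H2BD* stayed in by this rule, although GENCODE release 29 lists them as transcribed pseudogenes that overlap on opposite strands.

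RNA-Seq was performed in MUTZ-3, an established human AML cell line that expresses *EVI1* (gene *MECOM*), with 1 library for each of 16 conditions and no replicate. In the PARPi (PARP inhibition) experiment, talazoparib was given at 1 µM, olaparib at 10 µM and DMSO as the vehicle, each for 12, 24 and 48 h, beside untreated cells at 0 h. For the knockdown, cells carried a lentiviral non-targeting control (NTC) or either of the *EVI1* hairpins shEVI1-2531 and shEVI1-2532, were selected with puromycin and were harvested at day 3 and day 6. The files of the shEVI1-2531 samples carry another hairpin number in their names, and the samples were grouped by their titles. Each treated library was compared with DMSO of the same hour or NTC of the same day. *MECOM* had 42.4 and 44.2 CPM (its counts scaled to the total of the library) with NTC at day 3 and day 6, 12.3 and 18.5 with shEVI1-2531, and 4.51 and 4.03 with shEVI1-2532. The libraries held 55999673 to 72681943 counts in the PARPi experiment and 95523038 to 120716213 in the knockdown, so that the level allowed by 3 counts lay between 0.0249 and 0.0536 CPM.

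Canonical transcripts of these genes have no introns and end in a conserved stem-loop in place of a poly(A) tail. The stem-loop is bound by *SLBP*, and its cleavage factors and the transcriptional coactivator *NPAT* gather at the histone gene clusters as cells enter S phase. Some of the genes are also known to give spliced or read-through transcripts that carry a poly(A) tail, which have been described in cells that leave the cycle. The libraries here were made with a poly(A)-selecting kit, so the counts measure the histone transcripts that this selection retained, and which form they came from cannot be told from 1 count per gene.

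The stem-loop is shown because it marks where the canonical transcript ends. In the 100 bases after the stop codon of the annotated transcripts, its pattern, a 6-base stem around a 4-base loop of which the fixed positions were searched on the coding strand, was found in 242 of 19395 coding genes (1.248%). Among the 51 histone genes, 23 have GENCODE release 29 models that end at the stop codon. Their counts cover no bases beyond it, except where the files use another gene entry. This holds for *HIST1H3B* and *HIST1H3C*, listed under other identifiers and over 506 and 459 bases. The H3 gene *HIST1H3F* covers 411 bases, so the counts of both can include bases beyond the stop codon. The remaining 28 were taken as running past it. They include the pseudogenes *HIST2H2BC* and *HIST2H2BD*, for which no stop codon is given. The stem-loop lay in 23 of these 28 models, with 5 different 16-base sequences. Of the 6 shown, with the stem-loop in capitals and 5 bases on either side, the first 4 belong to genes that rose with time under PARPi, and the last 2 to genes that fell with shEVI1-2532.
HIST1H2AC: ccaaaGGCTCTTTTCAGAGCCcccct
HIST2H2BE: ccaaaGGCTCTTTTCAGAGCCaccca
HIST1H2BD: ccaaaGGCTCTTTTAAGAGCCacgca
HIST1H4I: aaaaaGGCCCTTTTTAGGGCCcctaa
HIST1H2BH: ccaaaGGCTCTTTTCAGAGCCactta
HIST1H2AG: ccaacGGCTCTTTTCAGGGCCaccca
The capitals of *HIST1H2AC*, *HIST2H2BE* and *HIST1H2BH* are identical, although *HIST1H2BH* moved the other way. In GRCh38 the stem-loop of *HIST2H2BE* lies on the minus strand at chr1:149886188-149886203, and its annotated transcript continues for 1729 bases beyond it. The transcript of *HIST1H2BH*, on the plus strand with the stem-loop at chr6:26252055-26252070, continues for 1640 bases.

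The summed level of the 51 genes was higher after 48 h of PARPi, in single libraries and without a test. It was 46.1, 45.9 and 54.3 CPM in the DMSO libraries at 12, 24 and 48 h, 45.2, 51.4 and 149 with olaparib and 44.6, 78.0 and 205 with talazoparib. With NTC it was 56.1 and 54.4 CPM at day 3 and day 6, against 93.2 and 64.0 with shEVI1-2531 and 93.3 and 81.8 with shEVI1-2532. All 4 knockdown libraries therefore lay above both NTC libraries, and the 12 h inhibitor libraries lay below DMSO. In bulk RNA, more or fewer cells of a kind and more or less RNA per cell cannot be told apart.

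Most of this sum came from few genes. The 6 with the most counts, *HIST1H2BK*, *HIST1H1C*, *HIST1H2AC*, *HIST1H4I*, *HIST2H2BE* and *HIST1H2BD*, held between 62.4% and 68.9% of the histone counts in the untreated, DMSO and NTC libraries. At 48 h this share was 87.5% with olaparib and 91.1% with talazoparib. The remaining 45 genes together had 18.4 CPM with DMSO at 48 h, 18.7 with olaparib and 18.1 with talazoparib. They had 17.5 and 17.4 CPM with NTC at day 3 and day 6, 19.1 and 14.1 with shEVI1-2531 and 9.30 and 9.51 with shEVI1-2532. Since the 6 genes were picked by their counts over these libraries, the shares are a description and were not tested.

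**Figure D1:**
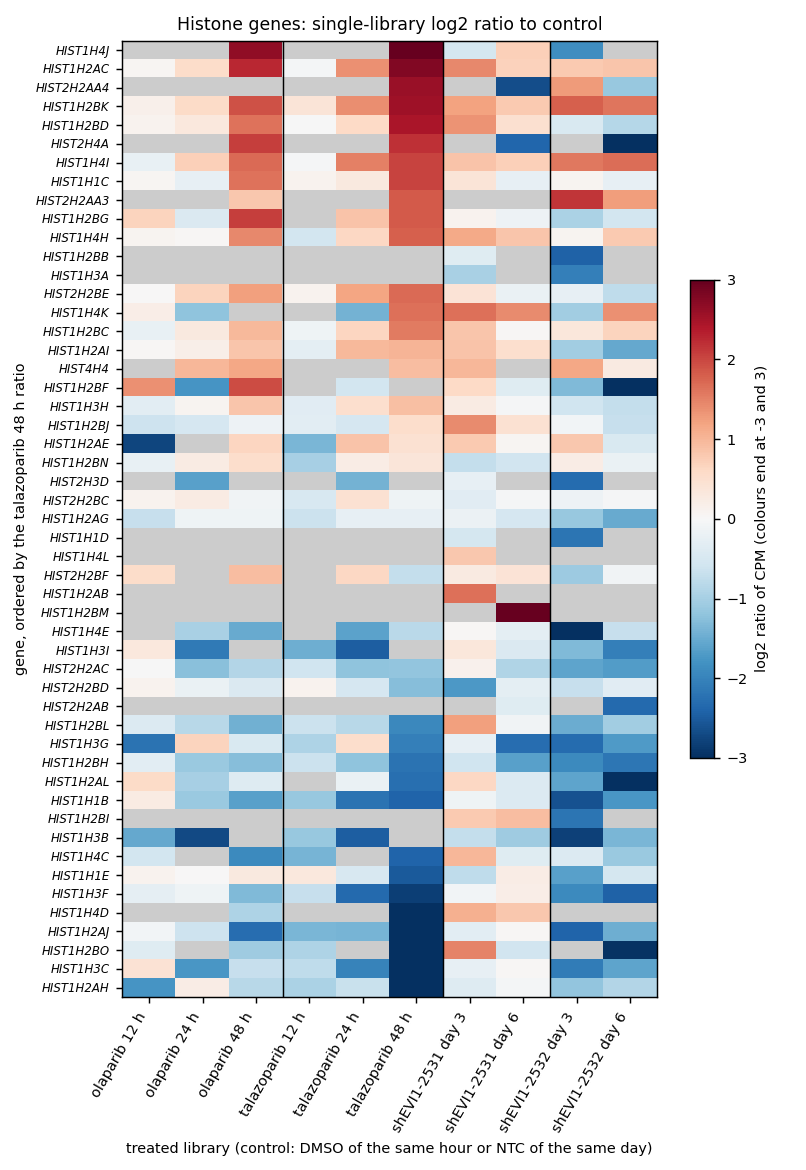
Log2 ratio of CPM in each treated library (columns) to its control for the 51 histone genes (rows, ordered by the talazoparib 48 h ratio), with red higher, blue lower and grey where both libraries had fewer than 10 counts. With talazoparib at 48 h, 15 genes were at least 2-fold higher and 15 at least 2-fold lower.

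Single genes moved in both directions. With talazoparib at 48 h, 15 of the 39 genes with at least 10 counts in either library were 2-fold or more higher and 15 were 2-fold or more lower, against 13.4% and 21.6% of all genes. Olaparib at 48 h gave 12 higher and 8 lower of 38 (10.4% and 12.2% of all genes). At 24 h, 1 of 34 was higher and 10 were lower with olaparib (6.8% and 2.99%). With talazoparib at 24 h, 4 of 35 were higher and 11 lower (8.85% and 4.61%). At 12 h, 1 of 35 was higher and 4 were lower with olaparib (3.03% and 2.23%), and 0 of 30 were higher and 6 lower with talazoparib (3.69% and 1.88%). These are ratios of 2 libraries, and their intervals cover counting error only. Low counts enter them through the library where they are high, since 6 of the 15 higher and 12 of the 15 lower genes with talazoparib at 48 h reached 10 counts in 1 of both libraries only. With olaparib at 48 h this held for 5 of 12 and 6 of 8. At 24 h it held for 1 of 1 higher and 6 of 10 lower genes with olaparib. With talazoparib at 24 h it held for 0 of 4 and 8 of 11. At 12 h it held for 1 of 1 and 4 of 4 with olaparib and for 4 of the 6 lower genes with talazoparib. The counts at all hours therefore describe the libraries and support no direction.

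Summed over all members of a class, with no filter, H2B went from 21.4 CPM with DMSO at 48 h to 81.6 with talazoparib, H2A from 13.2 to 57.5, H4 from 5.45 to 19.6, H1 from 11.2 to 42.1 and H3 from 3.12 to 3.82. Single genes made up much of these sums. *HIST1H2AC* alone had 7.72 and 53.2 CPM of H2A, and *HIST1H1C* 10.3 and 42.0 of H1. *HIST1H2BK* had 10.2 and 60.1 CPM of H2B, and *HIST1H4I* 4.11 and 16.8 of H4. The class sums therefore cannot show a rise of the other genes in a class. Most H3 and H4 genes had few counts. The H4 genes with the most were *HIST1H4I*, at 262 and 939, and *HIST1H4H*, at 29 and 89, and the H3 gene with the most was *HIST1H3H*, at 119 and 195 counts with DMSO and talazoparib.

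The genes that rose did so with time. *HIST1H2BK*, an H2B gene, had 10.1, 10.1 and 10.2 CPM at 12, 24 and 48 h with DMSO, 11.3, 14.9 and 38.6 with olaparib and 13.3, 26.5 and 60.1 with talazoparib. Its 3 DMSO libraries differed by little, and each inhibitor library lay above the DMSO library of its hour. The log2 ratio at 48 h was 1.91 (95% counting interval 1.79 to 2.04) with olaparib and 2.55 (95% counting interval 2.43 to 2.68) with talazoparib.

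*HIST1H2AC*, an H2A gene, had 4.05, 4.86 and 7.72 CPM with DMSO, 4.2, 7.15 and 37.2 with olaparib and 3.91, 12.6 and 53.2 with talazoparib. Its level with DMSO rose over the course, and the 48 h inhibitor libraries lay far above that. *HIST1H4I*, an H4 gene, had 4.37, 3.32 and 4.11 CPM with DMSO, 3.77, 5.41 and 13.3 with olaparib and 4.26, 9.42 and 16.8 with talazoparib. It was not above DMSO at 12 h and lay above it at 24 and 48 h with either inhibitor.

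*HIST1H1C* encodes a somatic linker histone. It had 8.87, 7.54 and 10.3 CPM with DMSO, 9.25, 6.41 and 32.2 with olaparib and 9.57, 9.21 and 42 with talazoparib. Its olaparib library at 24 h lay below DMSO, and both 48 h inhibitor libraries lay above it. *HIST1H2BD*, an H2B gene with an annotated spliced transcript, had 1.17, 1.09 and 1.46 CPM with DMSO, 1.27, 1.35 and 4.55 with olaparib and 1.16, 1.64 and 7.95 with talazoparib. *HIST2H2BE* is an H2B gene of the chromosome 1 cluster with a long annotated 3′ end. It had 1.42, 1.73 and 2.01 CPM with DMSO, 1.43, 2.73 and 4.75 with olaparib and 1.52, 3.93 and 6.57 with talazoparib. The untreated cells had 4.67 CPM of *HIST2H2BE*, 3.29-fold the 12 h DMSO level, so that its rise from DMSO at 48 h brought it to near the level before treatment or above it.

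**Figure D2:**
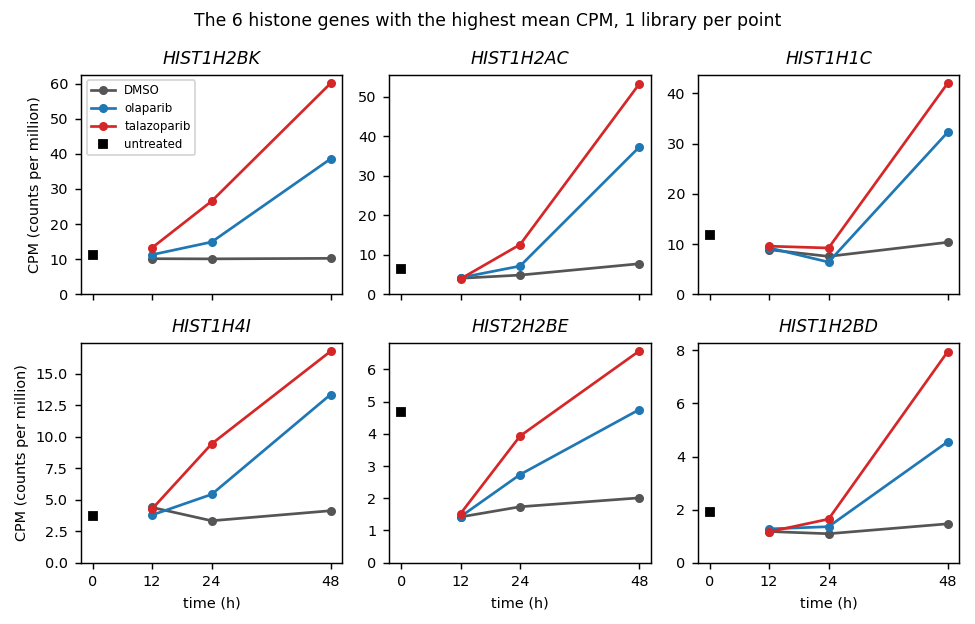
CPM (vertical axis, from 0) of the 6 histone genes with the most counts against hours of treatment, 1 library per point, with DMSO in grey, olaparib in blue, talazoparib in red and untreated cells as a black square. All 6 are highest with talazoparib at 48 h.

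Whether the inhibitor effect changed with time was tested with a slope on log2 of hours, averaged over both inhibitors, in the 9 libraries of the course. Of the 33 histone genes with enough counts, 10 had a slope above 0 and 0 below it at the 0.05 threshold on adjusted p in edgeR (2 below at an unadjusted p under 0.05; 0 below with DESeq2), against 10.0% of all genes above and 9.82% below (19.8% either way). The median slope was 0.44 for the histone genes and −0.01 for all genes tested. Per doubling of time, the effect rose by 1.38 (standard error 0.15, edgeR adjusted p = 3.14e-17) for *HIST1H2AC*. The slope was 1.09 (standard error 0.14, edgeR adjusted p = 1.75e-12) for *HIST1H2BK* and 1.10 (standard error 0.16, edgeR adjusted p = 2.09e-10) for *HIST1H4I*. It was 0.99 (standard error 0.15, edgeR adjusted p = 1.45e-09) for *HIST1H1C*, 1.12 (standard error 0.21, edgeR adjusted p = 3.63e-06) for *HIST1H2BD* and 0.81 (standard error 0.20, edgeR adjusted p = 0.000487) for *HIST2H2BE*. The H4 gene *HIST1H4H*, the H3 gene *HIST1H3H*, the H2A gene *HIST1H2AE* and the H2B gene *HIST1H2BC* also passed, with slopes of 1.04, 0.71, 1.40 and 0.83. The slope of *HIST1H2AE* rests on few counts, 21, 9 and 15 with DMSO at 12, 24 and 48 h, 3, 6 and 22 with olaparib and 9, 13 and 18 with talazoparib. Its log2 ratios at 48 h were 0.63 and 0.45, with counting intervals that include 0.

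Fewer genes passed without some of the libraries, but each such fit also lost the direct contrasts of the left-out library at its hour. Without DMSO at 48 h, 2 genes passed, and the slope of *HIST1H1C* was −0.063. That fit had no contrast to DMSO at 48 h, so its slopes came from 12 and 24 h only. It therefore cannot show how far the rise at 48 h rests on that DMSO library. The count was 4 without olaparib at 48 h, 5 without DMSO at 12 h, 6 without talazoparib at 12 h and 6 with DESeq2. The shares over all genes in these fits are not given here.

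Other genes had lower levels with either inhibitor. *HIST1H2BH*, an H2B gene, had 2.02, 1.86 and 1.74 CPM at 12, 24 and 48 h with DMSO, 1.63, 0.862 and 0.714 with olaparib and 1.29, 0.811 and 0.375 with talazoparib, lower in 6 of 6 inhibitor libraries. It was the only histone gene called for the mean effect of both inhibitors over time, with a log2 fold change of −1.03 (standard error 0.23, edgeR adjusted p = 0.0478). For this mean effect, 1 of 33 genes was lower and 0 were higher (4 higher at an unadjusted p under 0.05; 3 higher with DESeq2), while 1.01% of all genes were lower and 3.16% higher. Without olaparib at 12 h, DMSO at 24 h, olaparib at 24 h, talazoparib at 24 h, DMSO at 48 h or olaparib at 48 h the lower count was 0. Without DMSO at 12 h it was 6 with 5 higher, and without talazoparib at 12 h 4 with 4 higher. The shares above belong to the fit of all 9 libraries, and those of the smaller fits are not given here. These counts therefore cannot be read as particular to the histone genes.

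*HIST1H1B* encodes another somatic linker histone. It had 26, 35 and 36 counts at 12, 24 and 48 h with DMSO, 30, 15 and 11 with olaparib and 13, 6 and 6 with talazoparib. Both inhibitors were below DMSO from 24 h on, and for talazoparib alone *HIST1H1B* was the only histone gene called, at −1.81 (standard error 0.40, edgeR adjusted p = 0.0497). The background for talazoparib alone was 0.999% of genes lower and 3% higher. *HIST1H2AJ*, an H2A gene, had 35, 33 and 41 counts with DMSO, 32, 20 and 8 with olaparib and 15, 10 and 4 with talazoparib. Its mean log2 fold change was −1.33 (standard error 0.34, edgeR adjusted p = 0.0555), which misses the threshold.

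*HIST2H2AC*, the H2A gene next to *HIST2H2BE*, had 70, 131 and 96 counts with DMSO, 67, 51 and 49 with olaparib and 51, 45 and 37 with talazoparib. The H3 genes *HIST1H3C* and *HIST1H3F*, which encode the same class of canonical H3, had low counts. *HIST1H3C* had 23, 40 and 24 counts with DMSO, 30, 11 and 14 with olaparib and 15, 8 and 2 with talazoparib, and *HIST1H3F* had 25, 19 and 16, 20, 16 and 6 and 17, 3 and 2. Talazoparib libraries were below DMSO at each hour for these 3 genes, and the mean effects of −0.79, −1.15 and −0.97 had edgeR adjusted p of 0.0601, 0.0914 and 0.101. *HIST1H2BL* (−0.88) and *HIST1H3I* (−1.21) completed the lower genes of smallest p, and *HIST1H2AI* (0.59), *HIST1H2BG* (0.91) and *HIST1H2BC* (0.58) the higher ones, and none of these 5 passed.

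**Figure D3:**
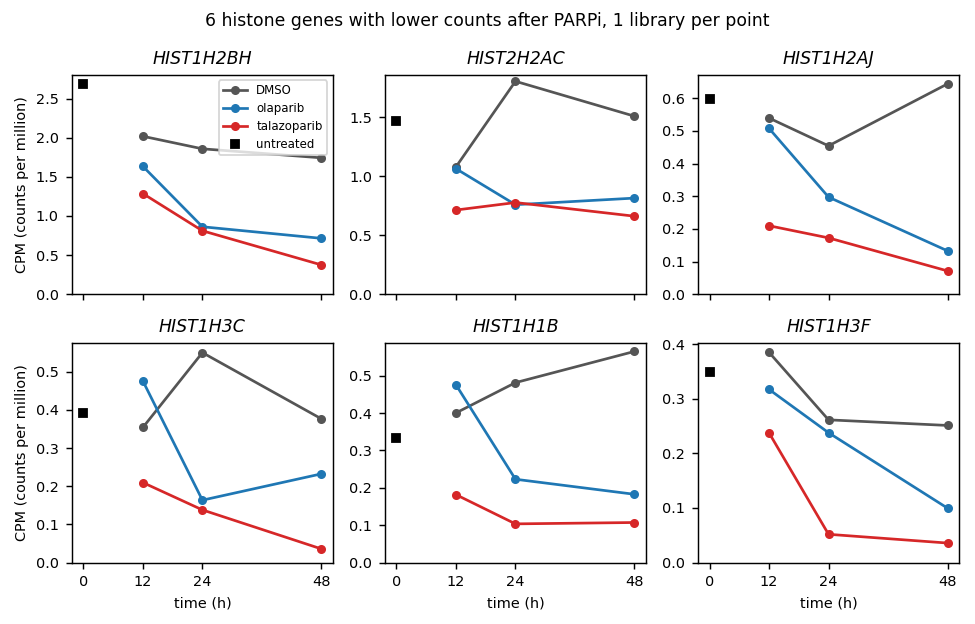
CPM (vertical axis, from 0) against hours of treatment for 6 of the 8 histone genes with the smallest p for a lower mean level under PARPi, 1 library per point, colours as in the plot of the genes with the most counts. At 48 h both inhibitor libraries lie below DMSO for all 6.

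The somatic linker genes thus differed in direction at 48 h. With talazoparib the log2 ratio was 2.02 (95% counting interval 1.90 to 2.15) for *HIST1H1C* and −2.40 (95% counting interval −3.94 to −1.14) for *HIST1H1B*. *HIST1H1E* had 13 counts with DMSO, 15 with olaparib and 2 with talazoparib. *HIST1H1D* had 3, 2 and 2 counts, and *HIST1H1A* did not reach 10 counts in any library. *H1F0*, the replacement linker gene linked to differentiation, is listed at 0 in all 16 libraries. Of the 9 histone genes listed at 0, *HIST1H3D* and *HIST1H2AK* have 100% and *HIST1H2AD* 98% of their exonic bases overlapped by another gene, and the others 0%. Whether the counting gave any of these values, or that of *H1F0*, was not tested.

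Talazoparib and olaparib were set against each other at their matched hours, at 1 µM and 10 µM. Of the 33 histone genes, 0 differed in edgeR (1 at an unadjusted p under 0.05), as did 0% of all genes (354 at an unadjusted p under 0.05). *HIST1H1B* had the smallest p, with talazoparib minus olaparib at −1.09 (standard error 0.42, edgeR adjusted p = 0.952). For *HIST1H2BK* the difference was 0.64 (standard error 0.38, edgeR adjusted p = 0.952). At 48 h the summed level was 205 CPM with talazoparib and 149 with olaparib, a difference between 2 libraries.

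Opposite changes also occurred between neighbours. H2A and H2B genes often lie head to head and share the DNA between their starts, and 9 such pairs had both genes among the 51, with 232 to 287 bases between the starts (RefSeq, GRCh38.p14). Of 51 genes, 46 matched a RefSeq promoter, taken as 250 bases before and 50 after the start. TATAAA stood in 32 of them (69.6%) and in 12.0% of all 27305 promoters, on either strand. CCAAT stood in 39 (84.8%, against 35.7%) and the octamer ATTTGCAT in 20 (43.5%, against 1.8%). The octamer was in 8 of 11 H2A and 12 of 15 H2B promoters and in 0 of the 4 H1, 7 H3 and 9 H4 promoters, whereas CCAAT was in 2 of 9 H4 promoters. Promoters of 3 genes that rose and of *HIST1H2BH*, which fell, are shown on their own strand, with these letters in capitals on either strand.
HIST2H2BE: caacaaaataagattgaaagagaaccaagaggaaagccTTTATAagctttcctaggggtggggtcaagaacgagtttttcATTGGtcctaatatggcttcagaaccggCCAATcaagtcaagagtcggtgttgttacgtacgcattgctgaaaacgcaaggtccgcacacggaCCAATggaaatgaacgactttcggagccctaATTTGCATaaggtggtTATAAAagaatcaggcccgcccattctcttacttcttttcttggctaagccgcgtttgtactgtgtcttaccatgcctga
HIST1H2BK: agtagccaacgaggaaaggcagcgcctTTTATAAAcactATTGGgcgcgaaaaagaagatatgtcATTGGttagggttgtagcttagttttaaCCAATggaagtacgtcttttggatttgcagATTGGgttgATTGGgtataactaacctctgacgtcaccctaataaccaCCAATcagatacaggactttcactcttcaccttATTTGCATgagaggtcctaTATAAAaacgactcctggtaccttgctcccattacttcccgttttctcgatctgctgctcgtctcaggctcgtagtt
HIST1H1C: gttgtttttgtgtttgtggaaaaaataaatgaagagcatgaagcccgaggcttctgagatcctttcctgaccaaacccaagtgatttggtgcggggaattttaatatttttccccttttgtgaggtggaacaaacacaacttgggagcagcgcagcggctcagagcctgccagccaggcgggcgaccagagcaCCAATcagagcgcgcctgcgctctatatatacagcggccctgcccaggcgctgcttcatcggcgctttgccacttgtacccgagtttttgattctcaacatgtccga
HIST1H2BH: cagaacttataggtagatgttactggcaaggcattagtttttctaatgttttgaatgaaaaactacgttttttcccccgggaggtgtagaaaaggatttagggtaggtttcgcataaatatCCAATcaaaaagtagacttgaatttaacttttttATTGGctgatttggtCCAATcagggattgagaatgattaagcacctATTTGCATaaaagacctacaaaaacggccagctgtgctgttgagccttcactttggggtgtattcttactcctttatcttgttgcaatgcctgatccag
The windows are chr1:149886633-149886932, chr6:27146809-27147108 and chr6:26056421-26056720 on the minus strand and chr6:26251364-26251663 on the plus strand. The window of *HIST2H2BE* holds the whole space to the start of *HIST2H2AC*, so both genes share these letters. The octamer is in *HIST2H2BE*, *HIST1H2BK* and *HIST1H2BH* and not in the *HIST1H1C* window, so it stood in genes of both directions.

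In the pair 235 bases apart on chromosome 1, *HIST2H2BE* was higher and *HIST2H2AC* lower. With talazoparib at 48 h the log2 ratio was 1.71 (95% counting interval 1.42 to 2.01) for *HIST2H2BE* and −1.19 (95% counting interval −1.78 to −0.63) for *HIST2H2AC*. *HIST1H2BK* had 652 counts with DMSO and 3366 with talazoparib at 48 h, and its partner *HIST1H2AH*, 247 bases away, had 15 and 1. For *HIST1H2BL* and *HIST1H2AI* the order was turned, with 26 and 6 counts for the H2B gene and 29 and 52 for the H2A gene. *HIST1H2BC* and *HIST1H2AC* both had higher counts, 29 and 75 against 492 and 2978. Over the 9 pairs, 6 had opposite signs at that time, and in 6 the counting intervals of both genes did not overlap. The pairs had no minimum of counts, and no share over other gene pairs was taken. These numbers therefore describe the pairs and cannot show a trait of neighbours. Over all 10 treated libraries, the number of pairs with opposite signs ranged from 2 to 6 and that with separate intervals from 0 to 6, and talazoparib at 48 h had the most separate intervals. Some signs came from counts of 0 set to 3. With olaparib, *HIST1H2BM* had 2 counts with DMSO and 0 at 48 h but a log2 ratio of 0.67. *HIST2H2AA4* had 3 and 0 at 24 h but 0.11, so the range of opposite signs depends on this setting. With shEVI1-2532 at day 3 these numbers were 4 and 4. The H2B genes *HIST2H2BC* and *HIST2H2BD*, counted in these pairs, are the annotated pseudogenes.

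**Figure D4:**
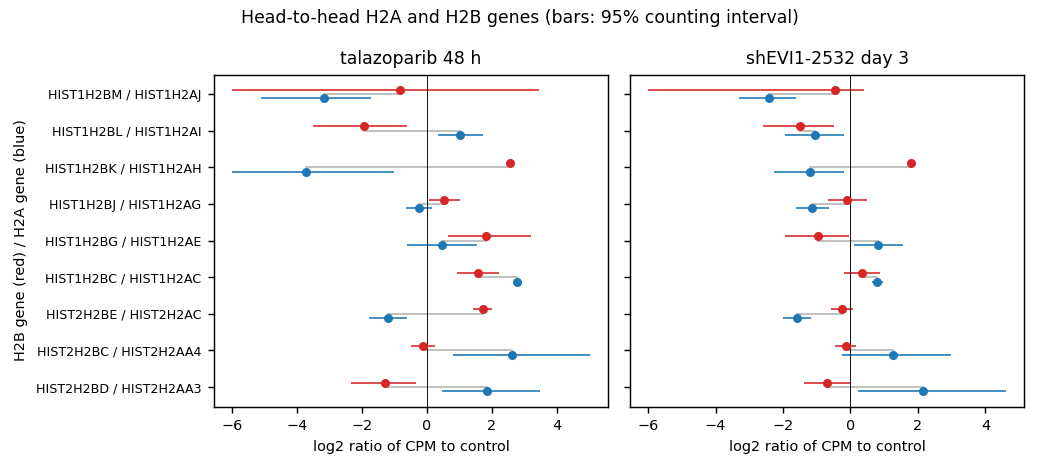
Log2 ratio of CPM to control (horizontal axis) of the H2B (red) and H2A (blue) gene of 9 head-to-head pairs with talazoparib at 48 h and shEVI1-2532 at day 3, with bars for the 95% counting interval, drawn no further than 6 in either direction, and a count of 0 set to 3. In 6 pairs with talazoparib and 4 with the shRNA the bars of both genes do not overlap.

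The knockdown asked what changed when *EVI1* itself was reduced. The fit held the day and the 3 groups, with 42 histone genes tested. *HIST1H2BK* had 13.5 and 14 CPM with NTC at day 3 and day 6, 31 and 24.3 with shEVI1-2531 and 46.5 and 42.7 with shEVI1-2532. *HIST1H4I* had 4.44 and 3.31 CPM with NTC, 8.05 and 5.43 with shEVI1-2531 and 13.3 and 10.6 with shEVI1-2532. For both genes the 3 groups did not overlap, with shEVI1-2532 highest. *HIST1H2AC* had 4.56 and 3.68 CPM with NTC, 12.4 and 5.92 with shEVI1-2531 and 7.91 and 6.55 with shEVI1-2532.

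These 3 genes rose with both hairpins. With shEVI1-2532 the log2 fold change was 2.0 (standard error 0.17, edgeR adjusted p = 3.8e-06) for *HIST1H2BK*, 1.93 (standard error 0.19, edgeR adjusted p = 1.2e-05) for *HIST1H4I* and 1.12 (standard error 0.23, edgeR adjusted p = 0.00244) for *HIST1H2AC*. With shEVI1-2531 it was 1.17 (standard error 0.17, edgeR adjusted p = 0.000644), 0.96 (standard error 0.19, edgeR adjusted p = 0.00505) and 1.25 (standard error 0.24, edgeR adjusted p = 0.00347) in the same order. Also higher with shEVI1-2531 were *HIST1H2BD* (1.09), *HIST1H2BJ* (1.11) and *HIST1H4H* (1.17). *HIST1H2BJ* had 59 and 58 counts with NTC, 125 and 83 with shEVI1-2531 and 46 and 33 with shEVI1-2532, and *HIST1H4H* 56 and 35, 98 and 65, and 49 and 56. In all, 6 of 42 were higher and 0 lower with shEVI1-2531 (1 lower at an unadjusted p under 0.05; 1 lower with DESeq2), against 9.49% and 7.9% of all genes. Fewer than 6 were higher without NTC at day 3 or without shEVI1-2531 at day 3. Both fits had lost the direct day 3 contrast of this hairpin to NTC. The lower genes of smallest p were *HIST1H2BH* (−0.92), *HIST2H2BD* (−0.77), *HIST2H2AA4* (−1.28), *HIST1H2BN* (−0.46) and *HIST1H3G* (−0.76), and none passed. With shEVI1-2532, *HIST2H2AA3* (1.94) and *HIST1H2BC* (0.83) came next among the higher genes and did not pass. Counts of *HIST2H2AA3* and *HIST2H2AA4* were low, at most 12 in the knockdown libraries, while *HIST1H2BC* had 60 to 88.

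The models of *HIST1H4I* and *HIST1H2BK* differ between annotations. In the files *HIST1H2BK* covers 381 bases of coding sequence on the minus strand (chr6:27146418-27146798), but the RefSeq model covers 8566 bases and spans *HIST1H4I* on the plus strand. Whether the counting used strand is not given in the sources used here, and without strand, reads from the longer *HIST1H2BK* model and from *HIST1H4I* cannot be told apart. *HIST2H3A*, *HIST2H3C* and *HIST2H4B* are not among the 51 genes, although *HIST2H3A* and *HIST2H3C* match over 408 bases and *HIST2H4A*, with 16 counts at 48 h with either inhibitor and 4 with DMSO, matches *HIST2H4B* over 309. *HIST1H4J* and *HIST1H4K* have identical coding sequences of 309 bases and *HIST2H2AA3* and *HIST2H2AA4* of 390 bases, so the division of their counts is uncertain.

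Genes fell with shEVI1-2532. *HIST1H2BH* had 274 and 364 counts with NTC at day 3 and day 6, 144 and 124 with shEVI1-2531 and 61 and 75 with shEVI1-2532, and all 4 knockdown libraries lay below both NTC libraries. *HIST2H2AC* had 227 and 183 counts with NTC, 196 and 103 with shEVI1-2531 and 63 and 53 with shEVI1-2532. *HIST1H1B* had 59 and 29, 43 and 23 and 8 and 8 counts in these groups, and *HIST1H2AJ* 96 and 51, 61 and 55 and 15 and 17. For *HIST1H2AJ* and *HIST1H1B* the shEVI1-2532 libraries lay below all others, while shEVI1-2531 overlapped with NTC.

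With shEVI1-2532, the log2 fold change was −1.74 (standard error 0.31, edgeR adjusted p = 0.000899) for *HIST1H2BH* and −1.33 (standard error 0.33, edgeR adjusted p = 0.00663) for *HIST2H2AC*. It was −1.64 (standard error 0.41, edgeR adjusted p = 0.00689) for *HIST1H2AJ*, −1.56 (standard error 0.42, edgeR adjusted p = 0.00994) for *HIST1H3C* and −1.88 (standard error 0.52, edgeR adjusted p = 0.0122) for *HIST1H1B*. *HIST1H3F* (−1.81), *HIST1H2AG* (−1.01) and *HIST1H2AL* (−2.30) completed the 8 of 42 that were lower, against 3 higher and a background of 19.9% lower and 21.2% higher. The share of lower genes was thus close to that of all genes. The median log2 fold change was −0.51 over the 42 genes and 0.00 over all genes. Fewer than 8 were lower without shEVI1-2532 at day 3, NTC at day 3 or NTC at day 6. Each of these fits had lost the direct contrast of that day. Of the 8 lower genes, 6 have GENCODE models that end at the stop codon, as have 15 of the 42 tested. The 6 include *HIST1H3C*, for which the files list another identifier and 459 bases. Of the 10 genes with a rising slope under PARPi, 2 have such models, as have 11 of the 33 tested.

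In single libraries, shEVI1-2531 at day 3 had 11 of 46 genes 2-fold or more higher and 1 lower (5.86% and 15.6% of all genes), and at day 6 it had 2 of 43 higher and 5 lower (5.92% and 12.1%). shEVI1-2532 had 5 of 44 higher and 25 lower at day 3 (10.3% and 22.2%) and 4 of 41 higher and 19 lower at day 6 (9.52% and 23.3%). Of the 25 lower genes with shEVI1-2532 at day 3, 16 reached 10 counts in 1 of both libraries only, as did 12 of the 19 at day 6. Summed over all 8 H3 genes, the level was 3.16 CPM with NTC and 1.37 with shEVI1-2532 at day 3.

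The hairpins differed from each other. In the direct test of shEVI1-2532 minus shEVI1-2531, 2 genes were higher, *HIST1H2BK* at 0.83 (standard error 0.17, edgeR adjusted p = 0.00376) and *HIST1H4I* at 0.98 (standard error 0.19, edgeR adjusted p = 0.00309), and 12 were lower, against 12.2% and 12% of all genes. *HIST1H2BD*, with 1.13 and 1.27 CPM with NTC, 2.86 and 1.78 with shEVI1-2531 and 0.818 and 0.706 with shEVI1-2532, lay above NTC with the first hairpin and below it with the second, and differed by −1.45 (standard error 0.30, edgeR adjusted p = 0.00437). Fewer than 12 genes were lower without shEVI1-2531 at day 3 or without shEVI1-2532 at day 3. Either removed the direct day 3 contrast of the hairpins.

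**Figure D5:**
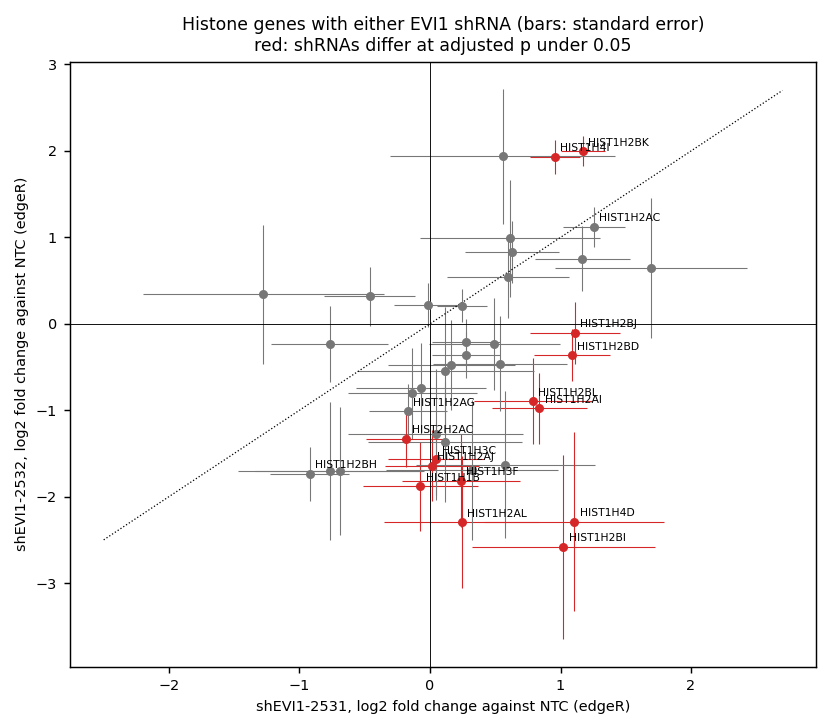
Fitted log2 fold change against NTC with shEVI1-2531 (horizontal) and shEVI1-2532 (vertical) for the 42 histone genes tested, with bars for the standard error, a dotted line of equal change and the 14 genes that differed between the hairpins in red. HIST1H2BK and HIST1H4I lie above the line and 12 red genes below it.

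Both experiments share no library. Of the 10 genes with a rising slope under PARPi, 5 (50%) were among the 6 that rose with shEVI1-2531 (83.3%), namely *HIST1H2AC*, *HIST1H2BD*, *HIST1H2BK*, *HIST1H4H* and *HIST1H4I*. Over all genes, 47.3% of those with a rising slope rose with shEVI1-2531, and these were 46.8% of the latter. All 3 that rose with shEVI1-2532 were also among the 10 (30% of the 10), while over all genes 73% of those with a rising slope rose with shEVI1-2532, which were 33.3% of the latter. TMM scaling and scaling to the library total differed by 0.19 and 0.27 on the log2 scale with olaparib and talazoparib at 48 h, by 0.17 with shEVI1-2531 on both days and by 0.26 and 0.35 with shEVI1-2532 at day 3 and day 6.

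Genes that process histone transcripts fell or did not pass. The shares over all genes, for this list and those that follow, were 10.0% higher and 9.82% lower on the slope, 21.2% and 19.9% with shEVI1-2532 and 9.49% and 7.9% with shEVI1-2531. Of 26 factors of histone mRNA processing, 0 had a rising and 4 a falling slope under PARPi, and 0 rose and 8 fell with shEVI1-2532, and 0 rose and 3 fell with shEVI1-2531. *SLBP*, which binds the stem-loop, was at −0.60 (standard error 0.13, adjusted p = 0.00355) with shEVI1-2532 and −0.46 (standard error 0.13, adjusted p = 0.032) with shEVI1-2531 in edgeR, and its PARPi slope of −0.32 (standard error 0.13, adjusted p = 0.0639) in edgeR did not pass. *CASP8AP2* (FLASH), which joins the cleavage machinery, had a slope of −0.66 (standard error 0.13, adjusted p = 1.15e-05) in edgeR. Of 11 regulators of histone gene transcription, 0 rose and 3 fell on the slope (*CDK2*, *CCNE1* and *E2F1*), 0 rose and 3 fell with shEVI1-2532, and 1 rose (*CCNE1*) and 1 fell (*NPAT*) with shEVI1-2531. *NPAT* was at −0.87 (standard error 0.21, adjusted p = 0.00606) with shEVI1-2532 and −0.69 (standard error 0.21, adjusted p = 0.0428) with shEVI1-2531 in edgeR.

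Against these same shares over all genes, of 11 replacement histone genes tested, 1 rose on the slope, *H2AFJ* at 0.46 (standard error 0.14, adjusted p = 0.00956) in edgeR, and 4 fell, among them *CENPA*, the centromeric H3, at −1.01 (standard error 0.14, adjusted p = 6.24e-11) in edgeR. With shEVI1-2532, 6 fell and 0 rose, and with shEVI1-2531 0 passed in edgeR's test. For the mean PARPi effect, *H2AFX* was called at −0.82 (standard error 0.18, adjusted p = 0.0468) in edgeR. Of 20 histone chaperones, 9 fell on the slope (9.82% of all genes), 10 with shEVI1-2532 (19.9%) and 4 with shEVI1-2531 (7.9%), and 0 rose. *CHAF1A* and *CHAF1B*, of the CAF-1 complex that places new histones behind the fork, and *HJURP*, the chaperone of *CENPA*, fell with both hairpins. *HJURP* was at −2.02 (standard error 0.17, adjusted p = 3.02e-06) with shEVI1-2532 and −0.76 (standard error 0.16, adjusted p = 0.0071) with shEVI1-2531 in edgeR. *TUT4*, which adds uridines to histone mRNA, also fell with both hairpins, at −0.67 and −0.90.

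Markers of S phase and of monocytes moved with the groups. Over all genes, 10.0% rose and 9.82% fell on the slope, 21.2% and 19.9% with shEVI1-2532 and 9.49% and 7.9% with shEVI1-2531. All 20 S phase genes had a falling slope (median −1.01), and their summed level at 48 h was 3765 CPM with DMSO, 1497 with olaparib and 649 with talazoparib. With shEVI1-2532 20 of 20 fell (median −1.10) and with shEVI1-2531 9 of 20 (median −0.40). Of 10 monocyte markers, 7 rose on the slope, 9 with shEVI1-2532 and 7 with shEVI1-2531, and 0 fell. *FCN1*, one of them, was also called for the mean PARPi effect at 1.37. *CD14*, *ITGAM*, *LYZ*, *FCN1*, *CD36* and *CD163* rose with both hairpins. The 10 markers' summed level was 764 CPM with DMSO at 48 h, 2566 with olaparib and 4414 with talazoparib, and 479 and 565 with NTC, 1489 and 1607 with shEVI1-2531 and 4681 and 6061 with shEVI1-2532 at day 3 and day 6. Much of this sum was *LYZ*, at 362 CPM with DMSO at 48 h, 1809 with olaparib and 3496 with talazoparib. In the knockdown at day 3 *LYZ* had 206 CPM with NTC, 1065 with shEVI1-2531 and 3913 with shEVI1-2532. At 48 h, 8 of the 10 markers lay above DMSO with either inhibitor. *CSF1R* lay below it, at 241 CPM with DMSO, 161 with olaparib and 158 with talazoparib. Of 8 progenitor markers, 0 rose and 4 fell on the slope, 1 rose and 4 fell with shEVI1-2532 and 2 rose and 3 fell with shEVI1-2531. *CD34* and *MECOM* fell and *CD33* rose with both hairpins, and *KIT* fell with shEVI1-2532 and rose with shEVI1-2531. Their part in the histone changes was not tested.

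The control libraries also differed from each other. Each is a single library, and they differ in time or vehicle, so these differences do not measure the spread between replicates. Against DMSO at 12 h, 5 of 37 genes were 2-fold or more higher and 0 lower in the untreated library (7.64% and 4.11% of all genes), 3 of 36 higher and 1 lower with DMSO at 24 h (2.83% and 2.28%), and 2 of 34 higher and 0 lower with DMSO at 48 h (7.3% and 4.01%). Between NTC at day 6 and day 3, 3 of 45 were higher and 2 lower (10.1% and 3.45%). *HIST1H2BM* had 5, 2, 6, 0 and 0 counts with NTC at day 3 and day 6, shEVI1-2531 at day 3 and shEVI1-2532 at day 3 and day 6, but 24 with shEVI1-2531 at day 6, a single library that was chosen here after its value was seen.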

How the data were processed

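Per the labels and methods, poly(A)-selected, stranded libraries were sequenced as paired 100 bp reads, and the submitters' processing notes name STAR, Picard, featureCounts and hg38/GRCh38. The authors deposited raw counts and TPM per gene, the TPM following from the counts over each gene's whole span. Only the counts were used. Members and lists were chosen with earlier results of these data known. Names ending in P or PS, also with a digit, were dropped. Genes with at least 10 counts in 3 of 9 PARPi or 2 of 6 knockdown libraries were scaled by TMM and fitted with edgeR 4.0.16 in R 4.3.3 (quasi-likelihood, Benjamini-Hochberg over all genes, threshold 0.05). The mean-effect fit had 4 residual degrees of freedom, the slope and knockdown fits 2, so errors lean on the spread shared across genes and time points or days stand in for replicates. Single-library ratios used library totals, with 95% exact binomial intervals and counts of 0 set to 3. Annotation came from GENCODE release 29 and promoters from RefSeq (GRCh38.p14). Tested on simulated data, the mean-effect fit recovered 98% of 200 changed genes, the slope 96%, shEVI1-2532 87% and the hairpin difference 90%. The simulated data gave every gene the same fixed spread, left out genes with few counts and held changes of exactly the fitted form. These shares check the fits and do not give their power for the histone genes here. Genes named are the 8 of smallest p per direction for PARPi, 5 per direction and hairpin, the 6 with the most counts, the linker genes, identical copies, and *SLBP*, *NPAT* and *H1F0*. Others were named for passing a test or for their pair, after their values were seen. 1 gene of the lists that the rule would name is not reported here. Alternatives were DESeq2 1.42.0, other scalings and filters, left-out libraries, other models, and other folds and pseudocounts.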

Additional observations from a re-analysis of the deposited data

Results flagged for a closer look

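The change from NTC differed between the hairpins for 14 histone genes, tested as shEVI1-2532 minus shEVI1-2531 in edgeR with 2 libraries per hairpin. The difference was −3.60 for *HIST1H2BI*, −3.39 for *HIST1H4D*, −2.54 for *HIST1H2AL*, −2.05 for *HIST1H3F*, −1.82 for *HIST1H2AI* and −1.81 for *HIST1H1B*. It was −1.69 for *HIST1H2BL*, −1.65 for *HIST1H2AJ*, −1.61 for *HIST1H3C*, −1.45 for *HIST1H2BD*, −1.21 for *HIST1H2BJ* and −1.15 for *HIST2H2AC*. In the other direction it was 0.83 for *HIST1H2BK* and 0.98 for *HIST1H4I*. The adjusted p of these 14 tests in edgeR lay between 0.00309 and 0.0292. *HIST1H2BI* and *HIST1H4D* rest on few counts, at most 15 in any knockdown library. *MECOM* was lower with shEVI1-2532 than with shEVI1-2531 in the same test, at −1.70 on the log2 scale, and whether the depth of the knockdown moved with these differences was not tested.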

How the results depend on the processing

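Histone genes counted as higher or lower changed with the processing as follows, and the cause was not tested unless the setting itself uses fewer libraries. The shares over all genes under these settings are not given here. The shifts therefore show how the counts depend on the setting and cannot be read as particular to the histone genes. For the mean PARPi effect, the lower count was 0 with library totals, without the 24 h libraries or with no time point in the model, against 1. It was 7 with 6 higher without a filter on low counts, 4 with 3 higher in DESeq2 and 5 with 5 higher without the 12 h libraries. Leaving out each library gave 0 to 5 higher and 0 to 6 lower. For the slope, 1 gene was lower with library totals, 6 were higher in DESeq2, and leaving out each library, an alternative chosen after seeing the data, gave 2 to 10 higher. For shEVI1-2532, 5 were lower in DESeq2 and 3 with no day in the model, 0 were higher and 0 lower with both shRNAs as 1 group, and leaving out each library gave 3 to 4 higher and 3 to 8 lower. For shEVI1-2531, 3 were higher and 1 lower with library totals, 1 was lower without a filter, in DESeq2 and in the 4 libraries of NTC and shEVI1-2531, 1 was higher with no day, and leaving out each library gave 2 to 8 higher and 0 to 1 lower. For the difference between the hairpins, 6 were lower in DESeq2, 0 were higher and 1 lower with no day, and leaving out each library gave 4 to 12 lower. Where a library was left out, the lone remaining one was assumed to vary like the others. The direct contrasts that used the left-out library at its hour or day were lost with it, so these ranges also hold that loss.

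In single libraries at 1.5-fold, the higher count was 2 with olaparib at 12 h, 4 with olaparib at 24 h, 11 with talazoparib at 24 h, 20 with shEVI1-2531 at day 3, 9 at day 6 and 7 with shEVI1-2532 at day 6, and the lower count was 16 with talazoparib at 12 h and 6 with shEVI1-2531 at day 3. On log2(CPM + 0.1), higher and lower counts were 0 and 2 with olaparib at 12 h, 0 and 5 with olaparib at 24 h, 2 and 10 with shEVI1-2532 on both days and 1 and 1 with shEVI1-2531 at day 6. There, 1 was lower with talazoparib at 12 h, 4 were lower with olaparib at 48 h and 5 were higher with shEVI1-2531 at day 3. With TMM scaling, 0 were higher with olaparib at 24 h and 7 with shEVI1-2532 at day 6. For these single-library settings, too, no share over all genes is given, so the counts describe the settings only. Of the fitted values of named genes under these alternatives, 569 kept direction and side of the threshold, 51 newly passed it, 71 lost it and 2 turned direction, *HIST1H1C* on the slope (−0.063 without DMSO at 48 h, up to 2.02 without DMSO at 12 h) and *HIST1H3G* with shEVI1-2531 (0.045 without its day 6 library, down to −2.19 without its day 3 library). Counts under about 10 limit many of the low genes.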
